A study of Mus musculus with 5 samples.

Results

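The 9 genes described here build the major histocompatibility complex (MHC) class I presentation pathway: H2-K1, H2-D1, H2-T23, B2m, Tap1, Tap2, Tapbp, Erap1 and Nlrc5. They were chosen by gene symbol among the 52143 mouse genes of the deposited table, and each symbol named 1 gene. Colon tumors from female mice were profiled by RNA-Seq on day 87 of a carcinogenesis protocol. Control mice carried Villin1-Cre-ERT, a Cre recombinase that tamoxifen activates and that the villin promoter restricts to the intestinal epithelium. SIGLEC12 mice carried the same Cre plus a conditional knock-in of human SIGLEC12 at the ROSA26 locus under a CAG promoter, which Cre switches on by removing a floxed EGFP cassette with a stop codon. Mice of both groups were 8 weeks old at the start and received tamoxifen (10 mg/ml) for 5 days and azoxymethane (AOM, a carcinogen) at 10 mg/kg. Both then received 4 cycles of 2.0% the colitis-inducing agent dextran sulfate sodium (DSS) for 5 days each, with 14 days of recovery. There were 2 Control tumors, Control 1 and Control 4, and 3 SIGLEC12 tumors, SIGLEC12 2, SIGLEC12 3 and SIGLEC12 4, named by the replicate numbers of the labels. A tumor piece holds epithelium, stroma and immune cells, so more class I RNA per cell and more cells that express class I could not be told apart. Human SIGLEC12 was not analysed here, so the knock-in was not checked.

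MHC class I molecules show peptides from inside a cell to CD8 T cells and natural killer cells. The proteasome cuts the peptides, TAP1 and TAP2 pump them into the endoplasmic reticulum (ER), ERAP1 trims them, and tapasin (Tapbp) loads them onto a heavy chain held by beta-2 microglobulin (B2m). Interferon-gamma raises transcription of most of these genes, partly through the transactivator NLRC5. In colon cancer, loss of class I or of B2m is a known route of escape from T cells.

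NLRC5 acts on a promoter module in which an X2 box (TGACG) precedes a Y box (ATTGG, an inverted CCAAT box), so the promoters of the class I genes are shown before their values. Sequences are from the RefSeq promoter table on GRCm38.p6, taken as the 250 bases before the start site, and 7 of the 9 genes were in it. Tap2 and Nlrc5 were not. The windows of H2-K1 (chr17:34000348-34000597, minus strand) and B2m (chr2:122147437-122147685, plus strand, without 1 transcribed base) are printed because H2-K1 and B2m were among the 3 most abundant of the 9 genes and B2m had the largest SD of log2(TPM + 1) within SIGLEC12 of the 8 tested. Capitals mark a kappa-B core (GGGNNTTCC), an interferon-stimulated response element core (GAAANNGAA), TGACG and ATTGG, searched on both strands. The marked matches did not overlap one another.
H2-K1: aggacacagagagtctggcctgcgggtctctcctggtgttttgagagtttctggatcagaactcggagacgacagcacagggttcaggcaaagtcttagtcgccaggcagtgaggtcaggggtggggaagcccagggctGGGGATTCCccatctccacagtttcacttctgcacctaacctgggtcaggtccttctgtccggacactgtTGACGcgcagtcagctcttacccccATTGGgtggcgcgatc
B2m: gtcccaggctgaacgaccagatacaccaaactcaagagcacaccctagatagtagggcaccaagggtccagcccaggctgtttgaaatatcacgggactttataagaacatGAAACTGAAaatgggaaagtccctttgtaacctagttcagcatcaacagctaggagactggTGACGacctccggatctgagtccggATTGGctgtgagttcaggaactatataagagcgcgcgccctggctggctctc

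In H2-K1, H2-D1 and B2m the X2 and Y boxes stood at the same spacing, with 20 bases between TGACG and ATTGG. These 30-base stretches are shown to compare the module among the 3 genes (chr17:34000359-34000388, minus strand, for H2-K1; chr17:35262993-35263022, plus strand, for H2-D1; chr2:122147609-122147638, plus strand, for B2m).
H2-K1: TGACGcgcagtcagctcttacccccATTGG
H2-D1: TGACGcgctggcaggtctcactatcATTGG
B2m: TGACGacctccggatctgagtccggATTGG
Over the 30 bases H2-K1 and H2-D1 shared 23, H2-K1 and B2m shared 13, and H2-D1 and B2m shared 12, the 10 bases of the boxes included. The spacing was noticed in these sequences and then counted. Of 27025 promoter windows, 25 (0.0925%) held the pair of boxes at this spacing, against 6.39% with TGACG and ATTGG at any spacing or strand. The 25 included 3 of the 7 class I presentation genes in the table and 1 of 99 other pathway and marker genes examined here, the class I gene H2-M3.

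H2-K1 and H2-D1 also shared the kappa-B core, shown with its flanks (chr17:34000439-34000468, minus strand, and chr17:35262913-35262942, plus strand).
H2-K1: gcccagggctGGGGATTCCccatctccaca
H2-D1: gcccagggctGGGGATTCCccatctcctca
The stretches were identical at 29 of 30 bases, and the 100 bases from the kappa-B core to the Y box at 89. The H2-D1 stretches lie in annotated UTR in GENCODE M21, inside the span of the H2-D1 gene. Annotated UTRs of any gene also covered 246 of the 250 bases in the Tap1 window, 244 in Tapbp, 154 in H2-T23 and 250 in Erap1. Among all windows 4.88% held the kappa-B core, 7.16% the interferon-stimulated core, 17.9% TGACG and 34.5% ATTGG. B2m held 1 interferon-stimulated core, as did H2-T23 and Erap1 on the opposite strand. Only the letters GAAANNGAA were searched for this core, and other spellings of the element were not. The lack of a match in H2-K1 and H2-D1 therefore does not show that they lack such an element. Tap1 held TGACG and a CCAAT box at another spacing and order, and Tapbp held 2 ATTGG boxes. These are matches of letters only.

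Expression values are the authors' log2(TPM + 1). TPM gives abundance per length as a share of all RNA in the sample. Protein-coding genes held 5.70% and 6.73% of TPM in Control and 8.85%, 8.75% and 9.72% in SIGLEC12, so a coding gene at a fixed share of coding RNA would be higher in SIGLEC12. The median log2 fold change over the 10338 genes tested was 0.38 as deposited and 0.01 after each sample was rescaled to the same protein-coding total, and both scales are therefore given. TPM keeps no read depth. Epithelial markers were present in all tumors, with Epcam at 4.92 in Control 1 and between 6.31 and 7.06 in the other 4.

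B2m had the highest mean over the 5 tumors (5.44), followed by H2-D1 (5.06) and H2-K1 (5.01), then Tapbp (3.71), H2-T23 (3.18), Erap1 (2.17), Tap1 (1.29), Tap2 (1.14) and Nlrc5 (0.33). H2-D1 and H2-K1 changed places between tumors, as did Tap1 and Tap2, so neither pair was ordered beyond its spread. B2m led in 4 tumors, but in SIGLEC12 4 both H2-D1 and H2-K1 stood above it. The summed TPM of the 9 genes was 60.1 and 121.4 in the Control tumors and 296.9, 172.2 and 112.5 in SIGLEC12 2, 3 and 4. SIGLEC12 2 thus held the most class I RNA, while SIGLEC12 4 held less than Control 4.

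**Figure D1:**
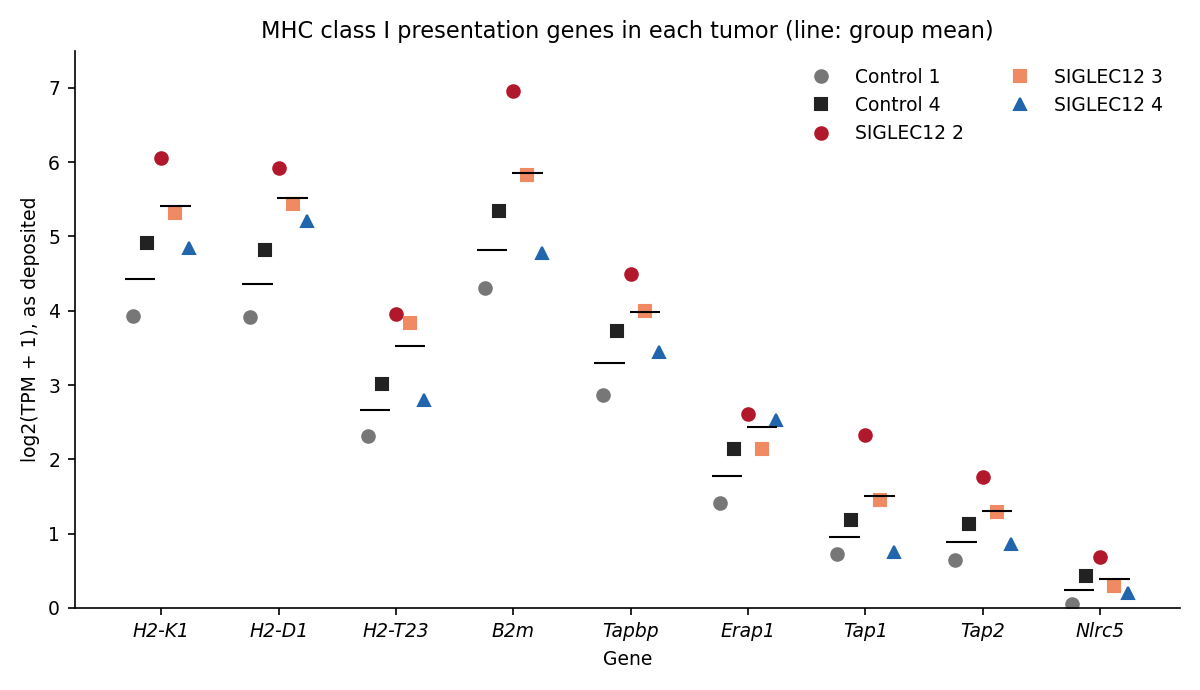
Deposited log2(TPM + 1) of the 9 genes (y axis) in each of the 5 tumors, with a point for each tumor and a line for each group mean. SIGLEC12 2 was the highest tumor for every gene, and SIGLEC12 4 lay among the Control tumors for B2m, H2-K1, H2-T23, Tapbp, Tap1, Tap2 and Nlrc5.

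The heavy chains came first. H2-K1 (ENSMUSG00000061232, GRCm38 chromosome 17, 33996017 to 34000347, minus strand), a classical heavy chain, was at 3.93 in Control 1, 4.92 in Control 4, and 6.06, 5.32 and 4.84 in SIGLEC12 2, 3 and 4. SIGLEC12 4 fell between the Control tumors, so the groups overlapped. The difference was 0.99 (SE 0.45, 95% confidence interval -0.09 to 2.07, limma adjusted p = 0.167), and 0.46 after rescaling. The value moved with the tumor left out. Without Control 1 it was 0.49 as deposited (limma unadjusted p = 0.357) and 0.07 after rescaling, and without Control 4 it was 1.48 as deposited (limma unadjusted p = 0.0253). Without SIGLEC12 2 it was 0.66, and without SIGLEC12 4 it was 1.27 (limma unadjusted p = 0.0317).

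H2-D1 (ENSMUSG00000073411, chromosome 17, 35262730 to 35267499, plus strand), the other classical heavy chain, was at 3.91 and 4.82 in Control 1 and 4, and at 5.92, 5.43 and 5.21 in SIGLEC12 2, 3 and 4. All 3 SIGLEC12 tumors stood above both Control tumors. The log2 fold change was 1.16 (SE 0.36, interval 0.29 to 2.02), with a limma unadjusted p of 0.0163 and an adjusted p of 0.101. After rescaling it was 0.63 (interval -0.21 to 1.46, limma unadjusted p = 0.117), and SIGLEC12 4 then lay below Control 4. Without Control 1 the fold change as deposited was 0.70 (limma unadjusted p = 0.0953), and without Control 4 it was 1.61 (limma adjusted p = 0.0454).

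H2-T23 (ENSMUSG00000067212, chromosome 17, 36029773 to 36032855, minus strand) encodes Qa-1, which presents leader peptides of other class I chains to natural killer cell receptors. It stood at 2.31 in Control 1, 3.01 in Control 4, 3.95 in SIGLEC12 2, 3.83 in SIGLEC12 3 and 2.79 in SIGLEC12 4. As for H2-K1, SIGLEC12 4 lay between the Control tumors. The difference was 0.86 (SE 0.41, limma adjusted p = 0.177), and 0.39 after rescaling. Without SIGLEC12 4 the difference as deposited was 1.23 (limma unadjusted p = 0.00772), without Control 4 it was 1.22 (limma unadjusted p = 0.0490), and without Control 1 it was 0.51. Class I genes resemble each other, so reads can be assigned to the wrong one. Of the 31-base words in their annotated transcripts, 22.8% for H2-K1, 26.7% for H2-D1 and 24.5% for H2-T23 also occurred in other genes, 11.1% of the H2-K1 words in H2-D1. B2m and Nlrc5 shared 0 words, and Tapbp, Tap1, Tap2 and Erap1 shared 4.62%, 0.825%, 1.34% and 0.328%. These shares describe the sequences and are not an error of the TPM. How far shared words changed the values of the 3 heavy chains was not tested.

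B2m (ENSMUSG00000060802, chromosome 2, 122147686 to 122153083, plus strand), the light chain of every class I molecule, had the largest SD within SIGLEC12 of the 8 genes tested, on log2(TPM + 1). Its TPM was 18.7 in Control 1 and 39.4 in Control 4, against 123.5, 56.0 and 26.4 in SIGLEC12 2, 3 and 4. On the log2 scale these were 4.30, 5.34, 6.96, 5.83 and 4.78. SIGLEC12 2 held 4.68 times the TPM of SIGLEC12 4, while the mean TPM of SIGLEC12 was 2.36 times that of Control. The SD within SIGLEC12, 1.09, was larger than that of 99.15% of all genes tested. The difference between the groups was 1.04 (SE 0.65, interval -0.52 to 2.60, limma adjusted p = 0.271), and 0.50 after rescaling. Without SIGLEC12 2 it was 0.49, and without SIGLEC12 4 it was 1.58 (limma unadjusted p = 0.0256, adjusted p = 0.190).

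The peptide supply genes were lower in abundance. Tap1 (ENSMUSG00000037321, chromosome 17, 34187553 to 34197225, plus strand) was at 0.72 and 1.19 in Control 1 and 4, and at 2.33, 1.45 and 0.75 in SIGLEC12 2, 3 and 4. SIGLEC12 2 had 5.88 times the TPM of SIGLEC12 4, the widest ratio within the group among the 8 genes tested. The difference was 0.56 (SE 0.44, limma adjusted p = 0.367), and 0.28 after rescaling. With a pseudocount of 0.1 TPM in place of 1 it was 0.84. Without SIGLEC12 2 it was 0.15, without Control 1 it was 0.33, and without SIGLEC12 4 it was 0.94 (limma unadjusted p = 0.0366). At its start site Tap1 overlaps Psmb9 on the opposite strand by 212 bases. Tap2 (ENSMUSG00000024339, chromosome 17, 34203527 to 34216321, plus strand), its partner in the transporter, was at 0.65, 1.13, 1.76, 1.30 and 0.86 in the same order of tumors. Its difference was 0.42 (SE 0.30, limma adjusted p = 0.322), and 0.15 after rescaling, with overlapping groups. The pseudocount of 0.1 TPM gave 0.72. Leaving out Control 1 gave 0.18 and leaving out SIGLEC12 2 gave 0.19, against 0.66 without Control 4 and 0.64 without SIGLEC12 4.

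Tapbp (ENSMUSG00000024308, chromosome 17, 33915899 to 33929292, plus strand), which bridges the transporter and the heavy chain, was at 2.87 and 3.73 in Control 1 and 4, and at 4.50, 4.0 and 3.45 in SIGLEC12 2, 3 and 4. The groups overlapped, and the difference was 0.68 (SE 0.39, limma adjusted p = 0.236), or 0.18 after rescaling. As deposited it was 0.26 without Control 1 and 0.43 without SIGLEC12 2, but 1.11 without Control 4 and 0.95 without SIGLEC12 4 (limma unadjusted p = 0.0417 and 0.0461).

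Erap1 (ENSMUSG00000021583, chromosome 13, 74639568 to 74693201, plus strand), the ER aminopeptidase, differed from the rest in its order of tumors. It was at 1.42 in Control 1 and 2.13 in Control 4, and at 2.61, 2.14 and 2.53 in SIGLEC12 2, 3 and 4, so SIGLEC12 4 stood high here. All SIGLEC12 tumors were above both Control tumors, although SIGLEC12 3 exceeded Control 4 by very little. The difference was 0.65 (SE 0.27, interval 0.01 to 1.30), with a limma unadjusted p of 0.0465 and an adjusted p of 0.141. After rescaling it was 0.24, and Control 4 then lay above SIGLEC12 4 and 3. Without Control 1 the fold change as deposited was 0.30 (limma unadjusted p = 0.283), without SIGLEC12 2 it was 0.56 (limma unadjusted p = 0.126), and without SIGLEC12 4 it was 0.60 (limma unadjusted p = 0.106). Without Control 4 it was 1.01 (limma adjusted p = 0.0491).

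Nlrc5 (ENSMUSG00000074151, chromosome 8, 94434356 to 94527272, plus strand), the class I transactivator, had at most 0.60 TPM and was not tested. It was at 0.06 in Control 1 and 0.42 in Control 4, and at 0.68, 0.29 and 0.20 in SIGLEC12 2, 3 and 4. Even at this level, SIGLEC12 2 was the highest tumor and Control 1 the lowest.

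Of the 9 genes, 8 passed the expression filter of at least 1 TPM in at least 2 tumors. At an unadjusted limma p under 0.05, 2 of the 8 (25%) were higher in SIGLEC12, against 33.4% of all genes tested. The 2, H2-D1 and Erap1, were also those whose groups did not overlap, which was so for 54.1% of all genes. With adjustment, 0 of the 8 and 0 of 10338 genes (0%) passed in limma, where 3449 genes were higher and 94 lower at an unadjusted p under 0.05. The median log2 fold change of the 8 was 0.77, against 0.38 over all genes. After rescaling, the median was 0.33 against 0.01, 0 of the 8 passed an unadjusted p under 0.05 (4.45% of all genes did so as higher), and 0 had groups that did not overlap (15.6%). With all 5 tumors, the share of class I genes called was thus not above that of all genes on either scale, while their median lay above that of all genes on both. This depended on single tumors. As deposited and without Control 1, 0 of the 8 passed an unadjusted p under 0.05, against 13.9% of all genes, and the median was 0.41. Without SIGLEC12 2, 1 passed (20.5% of all genes) and the median was 0.52, and without SIGLEC12 3, 2 passed (22.3%). The share was above that of all genes without SIGLEC12 4, where 6 of the 8 passed (22.8% of all genes) and the median was 1.09, and without Control 4, where 5 passed (42.7%) and the median was 1.16.

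**Figure D2:**
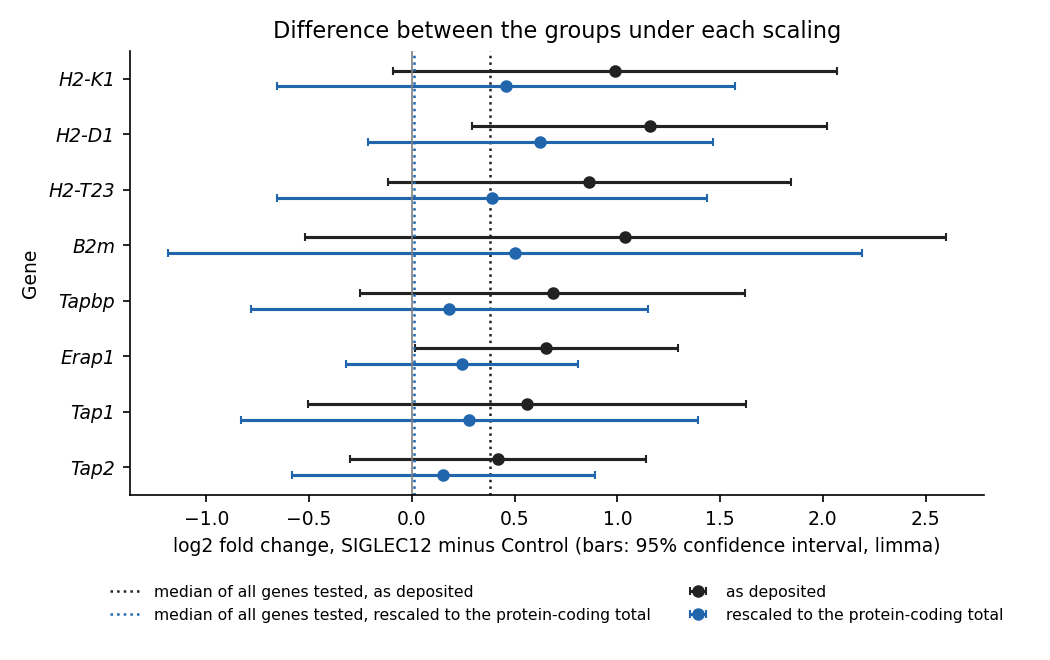
Log2 fold change of SIGLEC12 minus Control (x axis) for the 8 genes tested, with 95% confidence intervals from limma, on the deposited and on the rescaled values, and dotted lines at the median of all genes tested. Only H2-D1 and Erap1 had intervals above 0 as deposited, and every interval held 0 after rescaling.

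The spread between mice of one group was wider than in most genes. The range within SIGLEC12 was larger than the fold change for 6 of the 8 genes, all but H2-D1 and Erap1, and the gap between the Control tumors was larger than the fold change for 5. The median SD within SIGLEC12 was 0.57 for the 8 genes and 0.19 for all genes, and the median gap between the Control tumors was 0.79 against 0.33. After rescaling, the medians were 0.63 against 0.17 within SIGLEC12 and 0.62 against 0.26 within Control.

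As deposited, the tumors kept nearly one order across the pathway. This order was noticed in the values of the 8 genes, so the shares over all genes are a description. All 8 were highest in SIGLEC12 2 and lowest in Control 1, a pattern found in 17% of all genes. Taken singly, SIGLEC12 2 was highest in 22.8% of all genes and Control 1 was lowest in 70.8%, so a low Control 1 was common to most genes. In 6 of the 8, all but H2-D1 and Erap1, the tumors ran from SIGLEC12 2 through SIGLEC12 3, Control 4 and SIGLEC12 4 to Control 1, an order found in 1.76% of all genes. SIGLEC12 4 lay below Control 4 in these 6, as it did in 19.6% of all genes. After rescaling, SIGLEC12 2 remained highest for all 8 (15.7% of all genes) and SIGLEC12 4 lay below Control 4 for all 8 (58.2%). The order as deposited then held in 2 of the 8 (1.79% of all genes), and Control 1 was lowest in 3 (35.8%). For B2m, Tap1, Tap2, Tapbp and H2-T23, SIGLEC12 4 was then the lowest tumor of the 5. As a share of protein-coding RNA, the 9 genes together took 0.106% in Control 1, 0.180% in Control 4, 0.336% in SIGLEC12 2, 0.197% in SIGLEC12 3 and 0.116% in SIGLEC12 4. On this scale SIGLEC12 4 stood close to Control 1 and SIGLEC12 3 close to Control 4.

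Among the pairs of the 8 genes, H2-K1 and Tapbp had the closest profiles across the 5 tumors, with a root mean square difference of 0.17 between values centred on each gene's mean. B2m and Erap1 were the farthest apart, at 0.72. Outside the 9 genes, the 5 whose profile was nearest to the mean class I profile, of 3021 candidates with a mean TPM of at least 5, were Ctss (0.08), Sycn (0.11), Irf1 (0.12), Btg2 (0.13) and Tpt1-ps3 (0.14). The median candidate was at 0.50. Ctss encodes cathepsin S, a protease of MHC class II presentation, and was at 3.17 and 4.04 in Control 1 and 4 and at 4.85, 4.45 and 3.95 in SIGLEC12 2, 3 and 4. Irf1, an interferon-induced transcription factor that acts on class I promoters, was at 1.95, 2.92, 3.57, 3.20 and 2.77 in the same order. Sycn was at 5.96, 6.97, 7.67, 7.09 and 6.56, and Btg2 at 1.79, 2.73, 3.54, 3.08 and 2.78. Tpt1-ps3 was at 5.93, 6.59, 7.51, 6.92 and 6.77. Of the 5, only Irf1 was in a gene list used here.

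Ratios of 2 genes within a tumor do not depend on how the tumor was scaled. They were tested for 8 pairs by an exact permutation test over the 10 splits of the tumors (two-sided), whose smallest possible p is 0.1. No pair could therefore pass, and the p-values ran from 0.6 to 1.0, each 1.0 after adjustment over the 8. H2-D1 had 0.75 and 0.69 of the TPM of B2m in Control 1 and 4, but 0.48, 0.75 and 1.37 in SIGLEC12 2, 3 and 4. H2-K1 had 0.76 and 0.74, against 0.53, 0.70 and 1.05. The heavy chains were thus low against B2m in SIGLEC12 2 and high in SIGLEC12 4, on either side of both Control tumors. The log2 differences between the groups were 0.14 for H2-D1 to B2m and -0.04 for H2-K1 to B2m (exact permutation p = 0.8 for each, n = 2 and 3). H2-T23 had 0.21 and 0.18 of the TPM of B2m in Control and 0.12, 0.24 and 0.22 in SIGLEC12 2, 3 and 4, and Tapbp had 0.34 and 0.31 in Control and 0.17, 0.27 and 0.38 in SIGLEC12. Tap1 had 1.14 and 1.08 times the TPM of Tap2 in Control and 1.69, 1.19 and 0.85 times in SIGLEC12.

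The inducible proteasome genes were compared with the subunits they replace. Psmb8, Psmb9 and Psmb10 encode the catalytic subunits of the immunoproteasome, which take the places of Psmb5, Psmb6 and Psmb7. Psmb8 to Psmb5 was 0.119 and 0.296 in Control 1 and 4, and 0.575, 0.163 and 0.079 in SIGLEC12 2, 3 and 4. Psmb9 to Psmb6 was 0.026 and 0.059 in Control and 0.107, 0.049 and 0.029 in SIGLEC12. Psmb10 to Psmb7 was 0.39 and 0.66 in Control and 1.13, 0.59 and 0.48 in SIGLEC12. SIGLEC12 2 was highest in all 3 ratios, Control 4 was second, and the lowest was SIGLEC12 4 for Psmb8 and Control 1 for the other two. The exact permutation p was 1.0 for Psmb8 to Psmb5 and 0.6 for each of the others.

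**Figure D3:**
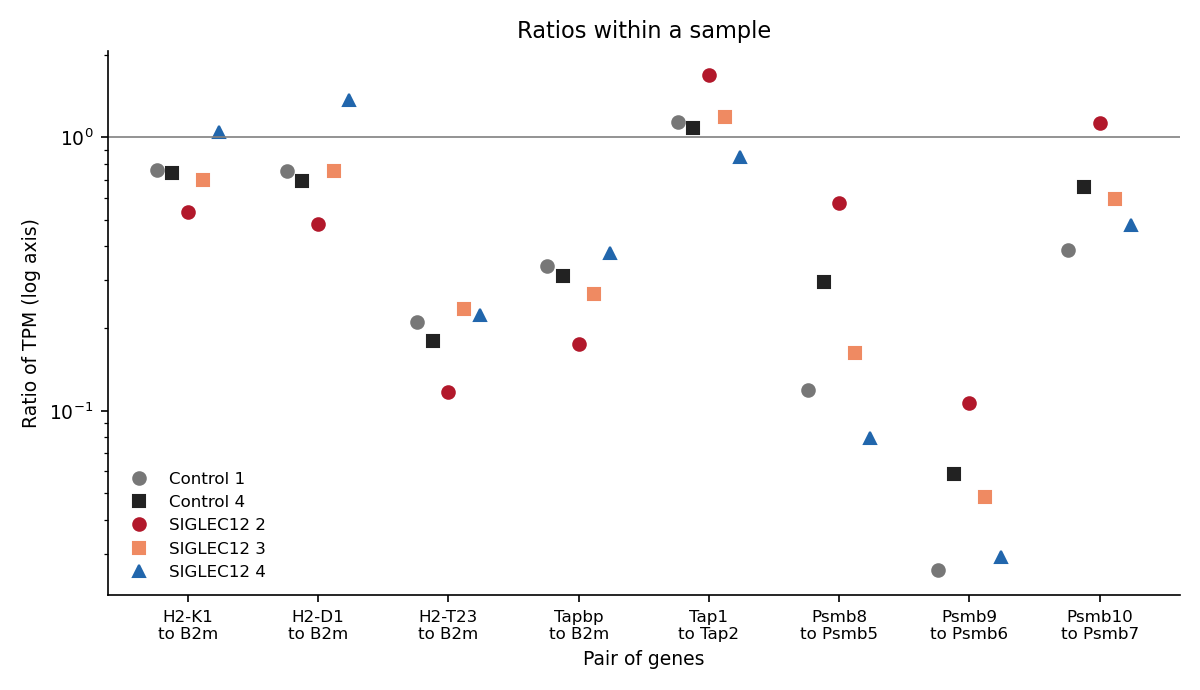
Ratio of TPM within each tumor for 8 pairs of genes (y axis, log scale), with a point for each of the 5 tumors. SIGLEC12 2 and SIGLEC12 4 lay at opposite ends for H2-K1 to B2m, H2-D1 to B2m, Tapbp to B2m, Tap1 to Tap2 and Psmb8 to Psmb5, with both Control tumors between them.

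By gene, the immunoproteasome list of 5 divided in a like manner. Psme1 and Psme2, the subunits of the PA28 activator, and Psmb10 were higher at an unadjusted limma p under 0.05 with groups that did not overlap (3 of 5). Over all genes, 33.4% were called as higher and 54.1% did not overlap. Psme1 was at 3.59 and 3.82 in Control and 5.35, 5.03 and 4.72 in SIGLEC12, a difference of 1.33 (SE 0.26, limma unadjusted p = 0.00178, adjusted p = 0.0974). Psme2 differed by 1.07 (limma adjusted p = 0.0976) and Psmb10 by 0.87 (limma adjusted p = 0.108). Psmb8 was at 0.98 and 1.67 in Control and 3.09, 2.06 and 1.15 in SIGLEC12, with a difference of 0.77 (limma adjusted p = 0.315). Psmb9 differed by 0.61 (limma adjusted p = 0.194). All 5 genes were highest or level with the highest in SIGLEC12 2: Psme2 alone stood at 4.12 in both SIGLEC12 2 and 3. Psmb9 reached 1 TPM only in SIGLEC12 2 and 3, so it passed the filter only through that group. After rescaling, 1 of the 5 passed an unadjusted p under 0.05, against 4.45% of all genes. Psmb5, Psmb6 and Psmb7 were higher by 0.93, 0.75 and 0.54 (limma unadjusted p = 0.00616, 0.0143 and 0.0318), with groups that did not overlap, as in 54.1% of all genes. Their limma adjusted p-values were 0.0974, 0.101 and 0.121, and 0 of the 3 passed an unadjusted p under 0.05 after rescaling. Unlike the class I genes, none of these 3 was highest in SIGLEC12 2.

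The genes for folding and loading in the ER stood at the other end. All 8 (Calr, Canx, Pdia3, Tapbpl, Uggt1, Ganab, Sec61a1 and Hspa5) were higher at an unadjusted limma p under 0.05 with groups that did not overlap, against 33.4% and 54.1% of all genes, and 0 passed adjustment. Pdia3, the disulfide isomerase ERp57 that tapasin binds, differed most. It was at 4.57 and 4.61 in Control and 5.59, 5.75 and 5.90 in SIGLEC12, a difference of 1.16 (SE 0.22, limma unadjusted p = 0.00156, adjusted p = 0.0974). Canx, the lectin chaperone calnexin, differed least, by 0.58 (limma adjusted p = 0.124). The median of the list was 0.66 as deposited and 0.23 after rescaling. On the rescaled values Pdia3 alone passed an unadjusted limma p under 0.05, against 4.45% of all genes called as higher. SIGLEC12 2 was the highest tumor for 1 of the 8, Tapbpl, and SIGLEC12 4 lay above Control 4 for all 8. Tapbpl encodes TAPBPR, a relative of tapasin, and was at 1.02 and 1.41 in Control and 2.07, 1.85 and 1.68 in SIGLEC12.

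**Figure D4:**
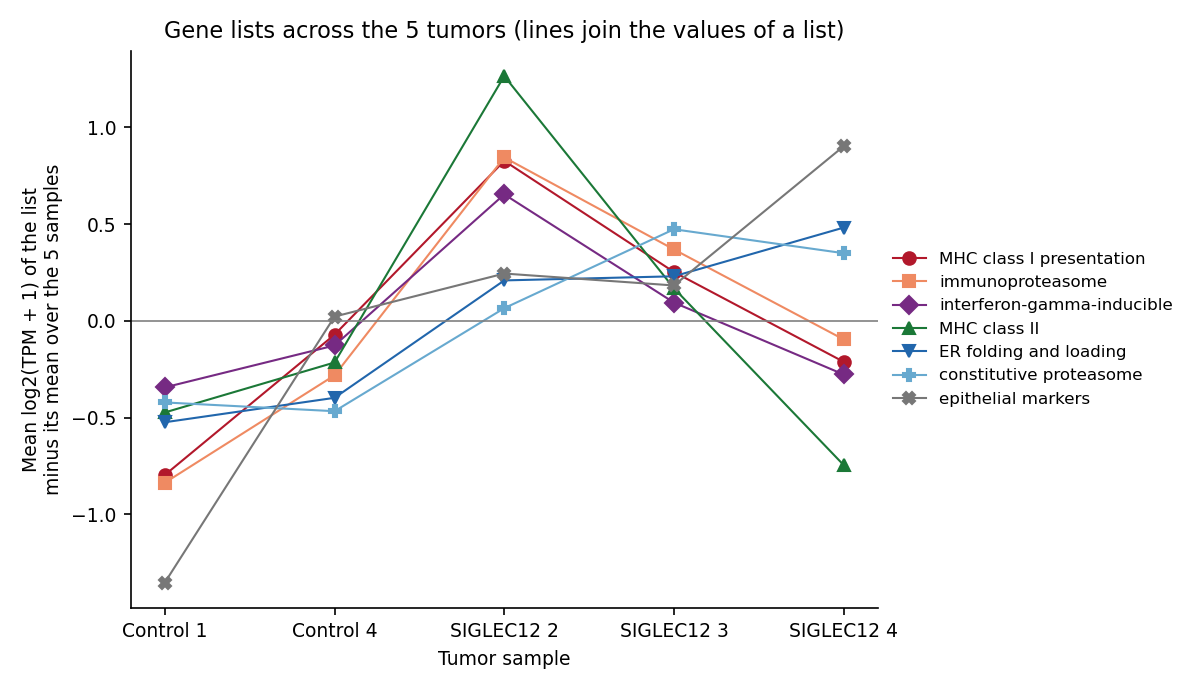
Mean log2(TPM + 1) of each gene list in the 5 tumors, minus the mean of the list over the tumors (y axis). The class I, immunoproteasome, interferon-gamma-inducible and MHC class II lists were highest in SIGLEC12 2 and lower in SIGLEC12 4 than in SIGLEC12 3, and the epithelial and ER folding lists were highest in SIGLEC12 4.

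Other class I genes were set beside these. Of 15 further H2 class I genes in the table, 5 were tested (H2-Q2, H2-Q4, H2-Q7, H2-Q10 and H2-T22), and their sequences share stretches with the classical genes. All 5 were highest in SIGLEC12 2 and lowest in Control 1, a pattern found in 17% of all genes. Control 1 was lowest in 70.8% of all genes. At an unadjusted limma p under 0.05, 1 of the 5, H2-Q10, was higher (difference 0.56, unadjusted p = 0.0288, adjusted p = 0.117), against 33.4% of all genes. SIGLEC12 4 lay below Control 4 in 4 of them, all but H2-Q10, which was at 0.48 in Control 4 and 0.74 in SIGLEC12 4. H2-Q10 reached 1 TPM only in SIGLEC12 2 and 3, so it passed the filter only through the group where it was higher. Its call and its place as highest in SIGLEC12 2 are therefore not independent of the filter. H2-Q2 had the largest difference, 0.90 (limma adjusted p = 0.149), at 1.39 and 1.92 in Control and 3.14, 2.62 and 1.89 in SIGLEC12. The median was 0.72, and 0.47 after rescaling. Of 5 proteins outside the locus that pair with B2m, only Fcgrt, the neonatal Fc receptor, was tested. It was at 0.86 and 1.48 in Control and 2.19, 1.91 and 1.71 in SIGLEC12, a difference of 0.76 (limma unadjusted p = 0.0185, adjusted p = 0.104).

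Of 24 interferon signalling and promoter-binding regulators, 21 were tested. At an unadjusted limma p under 0.05, 7 of 21 were higher, against 33.4% of all genes, and 0 passed adjustment. Their median was 0.44, and 0.11 after rescaling, where 1 was higher and 1 lower at an unadjusted p under 0.05. Over all genes, 4.45% were called as higher on that scale and 652 of 10338 as lower. Ifngr2, a chain of the interferon-gamma receptor, had the largest difference, 1.25 (SE 0.33, limma unadjusted p = 0.00743, adjusted p = 0.0974), at 1.96 and 2.88 in Control and 3.60, 3.99 and 3.42 in SIGLEC12. Nfkb1, a subunit of NF-kappa-B, had the smallest, 0.01 (limma adjusted p = 0.975). Ifng itself was listed at 0 in 4 tumors and at 0.04 in SIGLEC12 2.

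Of 19 interferon-gamma-inducible genes, 4 were tested, and 0 passed an unadjusted p under 0.05. These were Gbp2, Igtp, Irgm1 and Irgm2, guanylate-binding proteins and immunity-related GTPases. All 4 were highest in SIGLEC12 2, as were 22.8% of all genes. Igtp and Irgm2 reached 1 TPM only in SIGLEC12 2 and 3, so they passed the filter only through that group. Their place as highest in SIGLEC12 2 is therefore not independent of the filter. Irgm1 differed most, by 0.70 (limma adjusted p = 0.183), and Igtp least, by 0.60 (limma adjusted p = 0.297). For Irgm1, SIGLEC12 4 (1.59) stood just above Control 4 (1.58), so its groups did not overlap. Gbp2 was at 0.87 and 1.52 in Control and 2.95, 1.82 and 0.87 in SIGLEC12, a difference of 0.68 (limma adjusted p = 0.388). The summed TPM of the 19 genes was 3.71 and 8.16 in Control 1 and 4, and 33.1, 13.3 and 5.23 in SIGLEC12 2, 3 and 4. Of 7 MHC class II genes, 4 were tested and 0 passed an unadjusted p under 0.05. Cd74, the invariant chain, was at 3.27 and 4.0 in Control and 6.03, 4.36 and 2.68 in SIGLEC12 (difference 0.72, limma adjusted p = 0.549). H2-Ab1 differed most, by 0.92 (limma adjusted p = 0.328), and H2-Eb1 least, by 0.59 (limma adjusted p = 0.499). The summed TPM of the class II genes was 18.0 and 26.5 in Control, and 118.4, 39.0 and 11.9 in SIGLEC12 2, 3 and 4. SIGLEC12 2 was the highest tumor and SIGLEC12 4 lay below Control 4 for all 4 class II genes tested, as for B2m and the TAP genes. Over all genes the shares were 22.8% and 19.6%.

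Markers of other cell types were set beside these orders. The 14 genes of CD8 T cells and natural killer cells summed to 0.51 and 0.74 TPM in Control and 1.59, 1.76 and 0.77 in SIGLEC12 2, 3 and 4, and 0 of 14 were tested. Cd8a was at most 0.08 on the log2 scale, and Cd8b1 was listed at 0 in SIGLEC12 4. Of 10 leukocyte genes, 7 were tested and 0 passed an unadjusted p under 0.05, with summed TPM of 12.3 and 6.18 in Control and 21.9, 27.3 and 7.60 in SIGLEC12. SIGLEC12 2 and 3 were thus the highest in leukocyte RNA, and SIGLEC12 4 and Control 4 the lowest. B and plasma cell genes summed to 0.15 and 0.30 TPM in Control and 1.51, 0.99 and 0.74 in SIGLEC12, and endothelial genes to 1.56 and 1.66 and to 5.92, 3.08 and 3.71, with 0 of 6 tested in each list.

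Of 6 fibroblast genes, 5 were tested and 3 (Col3a1, Dcn and Pdgfra) were higher at an unadjusted limma p under 0.05, against 33.4% of all genes. After rescaling 2 (Dcn and Pdgfra) were so, against 4.45%. Pdgfra reached 1 TPM only in SIGLEC12 2 and 4, so it passed the filter only through the group where it was higher. Its calls are therefore not independent of the filter. The summed TPM of the 6 was 8.72 and 10.5 in Control and 57.9, 18.0 and 24.4 in SIGLEC12 2, 3 and 4. All 6 smooth muscle genes were highest in SIGLEC12 2, with summed TPM of 45.3 and 52.0 in Control and 112.3, 45.7 and 48.5 in SIGLEC12, and 0 passed an unadjusted p under 0.05. SIGLEC12 2 therefore held more stromal as well as more class I RNA. The other tumors did not keep one order. SIGLEC12 4 held more fibroblast RNA than SIGLEC12 3 (24.4 against 18.0 TPM) but less class I RNA (112.5 against 172.2). Control 1 and 4 were close in fibroblast RNA (8.72 and 10.5) but not in class I RNA (60.1 and 121.4). Of 10 epithelial genes, 9 were tested and 5 (Epcam, Krt8, Krt18, Krt19 and Cldn7) were higher at an unadjusted limma p under 0.05, against 33.4% of all genes. After rescaling 0 of the 9 did so, and 0 passed adjustment. Their summed TPM was 320.4 in Control 1, 939.9 in Control 4 and 1147, 1133 and 1767 in SIGLEC12 2, 3 and 4. Control 1 was the lowest tumor and SIGLEC12 4 the highest for the summed level. Class I RNA per coding RNA was lowest in these same tumors, at 0.106% in Control 1 and 0.116% in SIGLEC12 4. The part of cell make-up in the class I values was not tested.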

How the data were processed

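The authors deposited 1 table of log2(TPM + 1), with 1 column for each of the 5 tumors and 0 unmapped value columns. The labels name a stranded total RNA kit, GRCm38 and kallisto 0.45.0, whereas the study's methods name an mRNA kit, a human reference and 3 technical replicate libraries for each sample. Whether a column averages such libraries is not stated. The series text gives 3 mice per condition, and 1 Control mouse was thus not analysed here. Read depth is unknown. Of the gene identifiers, 98.45% were in GENCODE M21, which gave coordinates and biotypes.

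Genes with at least 1 TPM in at least 2 tumors (10338, of which 9222 protein-coding) were fitted with limma 3.58.1 in R 4.3.3 (mean-variance trend, two-sided, no covariate), tested first on simulated data, with Benjamini-Hochberg adjustment over all of them. Rescaled values had each tumor's TPM set to the same protein-coding sum. The pseudocount of 1 understates changes of low genes. Ratios used a pseudocount of 0.01 TPM. Replicates are mice, as far as the labels say. The 9 genes and all lists were chosen with earlier results of these data known. Named genes were all 9, the extremes of each list, the proteasome genes and the 5 nearest profiles. Other genes, such as Gbp2, Cd74, Tapbpl and the cell type markers, were named after their values were seen. Profiles, promoters and shared words were handled in Python 3.11.15.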

Additional observations from a re-analysis of the deposited data

How the results depend on the processing

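No paired analysis was run, because the labels link no Control mouse to a SIGLEC12 mouse. With 2 and 3 mice and no read depth, differences of low genes such as Tap1, Tap2 and Nlrc5 rest on few transcripts, and leaving out a Control tumor leaves 1 tumor that is assumed to vary like the others. As planned, 14 alternatives were run, and the 110 fold changes of the 9 genes under them were all above 0. Of these, 2 had an adjusted limma p under 0.05, H2-D1 (0.0454) and Erap1 (0.0491), both without Control replicate 4. Leaving out each replicate after rescaling was chosen after seeing the data. Summing rows of a symbol gave the same values, as each symbol had 1 row.

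The number of the 8 class I genes higher at an unadjusted p under 0.05 was 2 as deposited. It was 1 with no filter, 1 with a filter of 5 TPM in 2 tumors and 1 without the mean-variance trend, and 0 under median-ratio size factors, rescaling to the protein-coding total and quantile normalization. Leaving out one replicate gave from 0 (without Control 1) to 6 (without SIGLEC12 4). The median log2 fold change of these genes, 0.77, was between 0.022 (after rescaling, without SIGLEC12 2) and 1.16 (without Control 4) when one replicate was left out.

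Over all genes, 3449 were higher and 94 lower at an unadjusted p under 0.05. There were 1732 and 33 with the filter of 5 TPM, which tested fewer genes, and 575 lower with no filter, which tested more. Median-ratio size factors gave 488 and 679, rescaling gave 460 and 652, and quantile normalization gave 610 and 527. These scalings remove the shift common to coding genes. Leaving out one replicate gave from 1438 (without Control 1) to 4416 (without Control 4) higher and from 75 (without SIGLEC12 3) to 278 (without Control 4) lower genes. With adjustment, these fits called between 0 and 1493 genes as higher and between 0 and 113 as lower, the most without Control 4.

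Signs changed only in the following cases. After rescaling, the fold change without SIGLEC12 2 was -0.068 for B2m, -0.12 for Tap1, -0.074 for Tap2 and -0.09 for Tapbp, and without Control 1 it was -0.058 for Tap2, -0.14 for Tapbp and -0.048 for Erap1. The lowest value of each of these 5 genes over the fits that left out one replicate is among these. Over all fits that left out one replicate, the highest values were 1.58 for B2m, 0.94 for Tap1, 0.66 for Tap2, 1.11 for Tapbp and 1.01 for Erap1. The log2 ratio differences, when one replicate was left out, lay from -0.30 to 0.19 for H2-K1 to B2m, from -0.26 to 0.50 for H2-D1 to B2m and from -0.26 to 0.24 for H2-T23 to B2m. They lay from -0.15 to 0.35 for Tap1 to Tap2, from -0.72 to 0.72 for Psmb8 to Psmb5 and from -0.14 to 1.03 for Psmb9 to Psmb6. With a pseudocount of 1 TPM, Psmb8 to Psmb5 was -0.16 (exact permutation p = 0.9) and Psmb9 to Psmb6 was -0.14 (exact permutation p = 0.8). The cause was not tested for the changes of sign.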
